A study of Juglans regia with 15 samples.

Results

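Walnut genes of the FAD2 family, 3 in number, were followed through the development of the endopleura, the thin seed coat that surrounds the kernel. They are JreChr13G11197 (JrFAD2) and its homologs JreChr09G11115 and JreChr10G10925, and they were chosen by their identifiers, 3 of the 39414 genes in the expression table. Earlier results of these data were known when they were chosen. The samples were endopleuras of walnut (Juglans regia), cultivar "Linzaoxiang", with no treatment named, taken 35, 63, 91, 119 and 147 days after pollination (DAP). There were 3 libraries at every one of the 5 stages, and the endopleuras of 7 nuts were pooled for each of the 15 libraries, so that differences between single nuts could not be seen. Expression was given as FPKM, the fragments of a gene per unit of its length and of mapped fragments in the library, so levels of different genes can be set side by side. How alike the sequences of the homologs are, and how reads that fit more than 1 of them were assigned, was not analysed here, and this bears on every ratio and share given between them. The number of fragments per library is not given in the sources used here, and the deepest library was estimated to be 1.35 times as deep as the shallowest.

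FAD2 is the oleate desaturase of the endoplasmic reticulum. It places a second double bond into oleic acid bound to a membrane lipid and so makes linoleic acid, the main fatty acid of walnut oil. Its electrons come from NADH through a cytochrome b5 reductase and cytochrome b5. Plants can carry several FAD2 genes, and in many oil crops one copy serves the seed while others are active in vegetative tissue.

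In the genome assembled by the authors, JrFAD2 is on chromosome 13 from 27107807 to 27108955. JreChr09G11115 is on chromosome 9 from 2605364 to 2606515, and JreChr10G10925 on chromosome 10 from 2461600 to 2462766. Their spans were of similar length, 1149, 1152 and 1167 bases, against a median of 1587 bases over all genes in the table. The exon structure was not analysed here. JrFAD2 and JreChr09G11115 had at least 1 FPKM in at least 3 libraries and were tested. JreChr10G10925 did not pass this filter.

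JrFAD2 was low in the young and in the mature endopleura and high at the 3 stages between. At 35 DAP its FPKM was 8.13, 21.4 and 4.55 in replicates 1 to 3. At 63 DAP it was 143, 111 and 162, and every library of this stage lay above those of 35 DAP. At 91 DAP it was 319, 202 and 123, and at 119 DAP 225, 591 and 111. The libraries of 63, 91 and 119 DAP overlapped with each other, and the spread was widest at 119 DAP, where replicate 2 stood far above the other 2. At 147 DAP the values were 11.3, 26.3 and 19.7, which overlapped with those of 35 DAP and lay below all values of the middle stages.

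JreChr09G11115 had the opposite profile. Its FPKM at 35 DAP was 261, 256 and 258, the narrowest spread of any stage. By 63 DAP it was 69.3, 42.3 and 46.3. It was 32.8, 32.7 and 53.3 at 91 DAP, and the values of 119 DAP were 62.2, 39.0 and 49.6. The libraries of these 3 stages overlapped with each other and lay below all those of 35 DAP. At 147 DAP the values were 658, 423 and 443, above every library of every earlier stage.

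JreChr10G10925 was close to absent from the endopleura. At 35 DAP it had 0.290, 0.549 and 0.887 FPKM. From 63 DAP on it stayed at or below 0.212 FPKM, and it was listed at 0 in 6 of the 15 libraries. It held at most 0.337% of the summed FPKM of the 3 homologs in any library, so the family total was set by the other 2 genes.

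**Figure D1:**
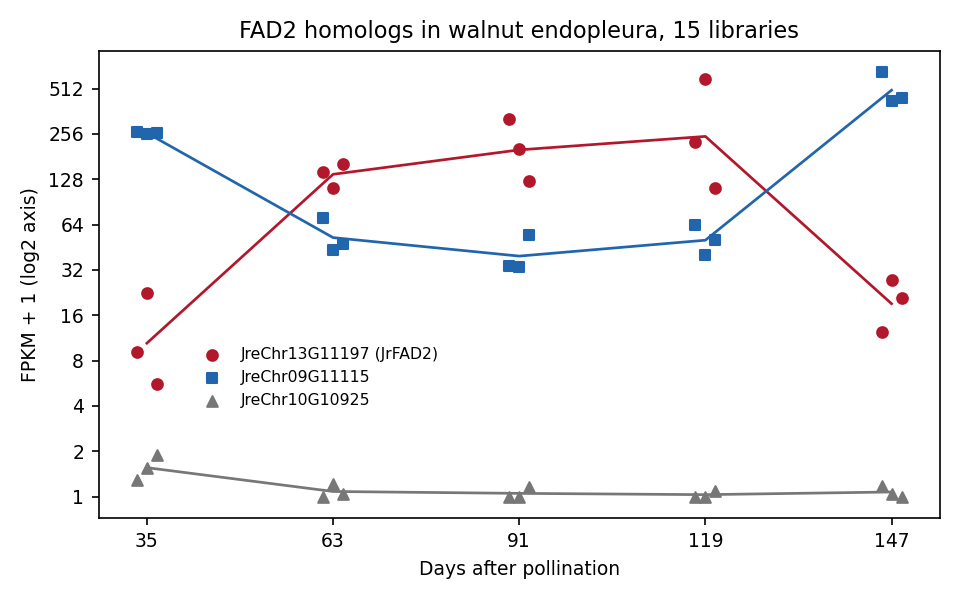
FPKM + 1 (log2 axis) of the 3 homologs in each of the 15 endopleura libraries against days after pollination. Points are libraries, shifted sideways for legibility, and lines join the stage means of log2(FPKM + 1). JrFAD2 lay between 111 and 591 FPKM at 63 to 119 DAP and at or below 26.3 FPKM at 35 and 147 DAP, while JreChr09G11115 lay at or below 69.3 FPKM in the middle stages and at or above 256 FPKM at both ends.

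Stage means of log2(FPKM + 1) were compared by limma in 1 fit of 22310 genes, with p-values adjusted over all of them by the Benjamini-Hochberg method. Nothing states whether the 3 pools of a stage came from separate trees, so the p-values measure the spread between these pools. Over the 5 stages 81.2% of the tested genes changed, and both tested homologs were among them. From 35 to 63 DAP 46.7% of the tested genes changed, 19.3% upwards and 27.4% downwards. JrFAD2 rose by 3.72 on the log2 scale (standard error 0.57, adjusted p = 9.97e-05 from limma), from a mean of 11.4 ± 8.88 to 139 ± 25.4 FPKM (SD, n = 3 each), a ratio of 12.2. Without replicate 2 of 35 DAP, the highest of its stage, the ratio was 21.8. Only 114 genes had a larger rise in this step. JreChr09G11115 fell by 2.31 (standard error 0.24, adjusted p = 1.99e-06 from limma), from 259 ± 2.58 to 52.6 ± 14.5 FPKM, and its mean was 4.91-fold lower. A larger fall was seen in 736 genes. The libraries of the 2 stages did not overlap for either homolog, which was the case for 60.9% of the tested genes.

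In the 2 middle steps neither homolog changed past the threshold. From 63 to 91 DAP, where 26.5% of the tested genes changed, the log2 difference was 0.54 for JrFAD2 (adjusted p = 0.544 from limma) and -0.41 for JreChr09G11115 (adjusted p = 0.232). From 91 to 119 DAP, where 18.3% changed, it was 0.30 for JrFAD2 (adjusted p = 0.786) and 0.35 for JreChr09G11115 (adjusted p = 0.343). The mean of JrFAD2 was 215 ± 98.7 FPKM at 91 DAP and 309 ± 251 FPKM at 119 DAP (SD, n = 3 each), and without replicate 2 of 119 DAP the log2 difference between these stages was -0.34. The mean of JreChr09G11115 was 39.6 ± 11.9 and 50.3 ± 11.6 FPKM at these stages.

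From 119 to 147 DAP, when the nut matured, both homologs turned back. In this step 35.9% of the tested genes changed, 14.1% upwards and 21.8% downwards. JrFAD2 fell by 3.69 on the log2 scale (standard error 0.57, adjusted p = 0.00023 from limma) to a mean of 19.1 ± 7.51 FPKM (SD, n = 3), which was 16.2-fold lower. A larger fall was seen in 56 genes. JreChr09G11115 rose by 3.31 (standard error 0.24, adjusted p = 3.17e-07 from limma) to 508 ± 130.3 FPKM, 10.1 times its level at 119 DAP. A larger rise was seen in 88 genes. Again the libraries of the 2 stages did not overlap for either gene, as for 43.7% of the tested genes. Without replicate 2 of 119 DAP, JrFAD2 changed by -3.06 on the log2 scale and its mean was 8.78-fold lower.

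The joint pattern of a rise from 35 to 63 DAP and a fall from 119 to 147 DAP, both with an adjusted p under 0.05, was met by 6.15% of the tested genes, JrFAD2 among them. The reverse pattern, a fall and then a rise, was met by 4.18%, JreChr09G11115 among them. The stage means of JrFAD2 spanned 4.56 log2 units and those of JreChr09G11115 3.66, against a median of 1.13 over the tested genes. By mean FPKM JreChr09G11115 ranked 450 among all 39414 genes at 35 DAP, 4088 at 91 DAP and 173 at 147 DAP. JrFAD2 ranked 11984 at 35 DAP, 338 at 119 DAP and 7640 at 147 DAP.

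The levels could be ordered only in part. For JrFAD2 the order from high to low was 119, 91, 63, 147 and 35 DAP, and only the step between 63 and 147 DAP was past the threshold (log2 difference -2.85, adjusted p = 0.000695 from limma), a pair of stages in which 57.7% of the tested genes changed. The difference between 35 and 147 DAP was 0.87 (adjusted p = 0.194), where 67.7% of the tested genes changed. It passed the threshold without replicate 2 of 35 DAP, the highest of its stage, with a difference of 1.42 (adjusted p = 0.0447). For JreChr09G11115 the order was 147, 35, 63, 119 and 91 DAP. It was 1.97 times as high at 147 DAP as at 35 DAP (log2 difference 0.94, adjusted p = 0.00267 from limma, with 24% of the tested genes higher), 35 DAP lay above 63 DAP, and the 3 middle stages did not differ beyond their spread.

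Which of the homologs was dominant therefore switched between 35 and 63 DAP and switched back between 119 and 147 DAP. JreChr09G11115 was the higher of the pair in 6 of 6 libraries at 35 and 147 DAP, by 12.0 to 58.2 times. JrFAD2 was the higher in 9 of 9 libraries at 63, 91 and 119 DAP, by 2.06 to 15.2 times. The share of JrFAD2 in the summed FPKM of the 3 homologs was 4.15% ± 3.14 (SD, n = 3) at 35 DAP, and 2.37% without replicate 2. It reached 72.5% ± 5.20, 82.2% ± 11.0 and 80.4% ± 12.5 in the 3 middle stages. At 147 DAP it was 3.93%, with the libraries between 1.69% and 5.85%. The libraries at both ends lay at or below 7.70% and those of the middle stages at or above 67.3%.

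**Figure D2:**
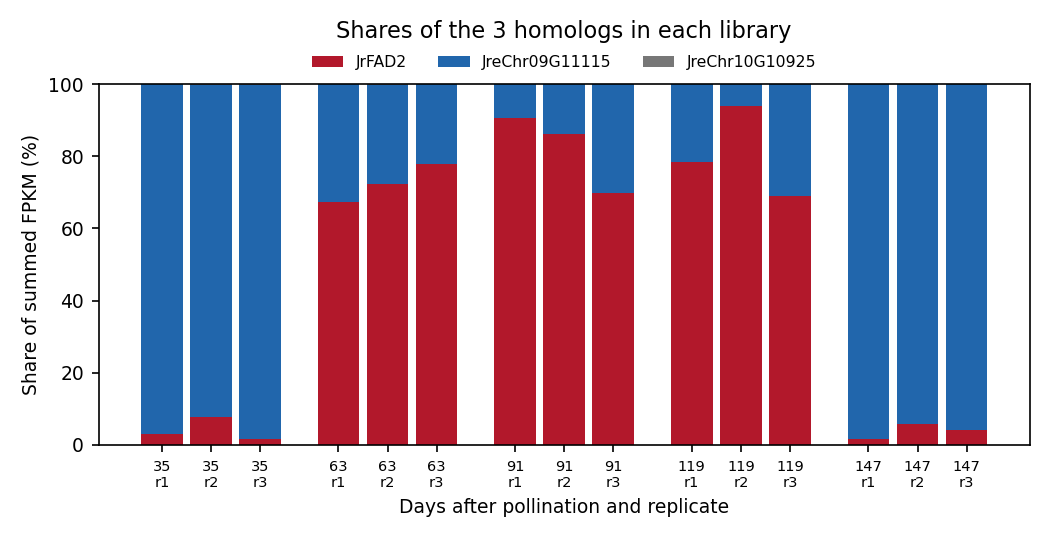
Share (%) of each homolog in the summed FPKM of the 3 homologs, 1 bar per library, grouped by days after pollination and replicate (r1 to r3). JrFAD2 held 67.3% to 93.8% in the 9 libraries of 63 to 119 DAP and 1.69% to 7.70% in the 6 libraries of 35 and 147 DAP, and JreChr10G10925 held at most 0.337%.

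Whether the profiles differ was tested on the difference between the homologs within each library, log2(FPKM + 1) of JrFAD2 minus that of JreChr09G11115, in which any scaling factor of the library cancels but for the added 1. Its stage means were -4.64, 1.40, 2.34, 2.29 and -4.71 in the order of the stages. Parallel profiles would give the same difference at every stage. Since the pair was chosen with earlier results of these data known, this test and the fits below describe it. They are not independent evidence of opposite profiles. An exact permutation test of the F statistic over all 1401400 ways of dividing the 15 libraries into 5 groups of 3 gave p = 0.00138, adjusted over 4 such tests 0.00184. The same exact test gave an adjusted p of 0.00149 for the profile of JrFAD2 alone, 0.000308 for JreChr09G11115 and 0.071 for the summed FPKM of the 3 homologs. For the sum, the limma F test over the 5 stages was past the threshold (adjusted p = 0.0274), so the tests differed in their call. The smallest p the test could give was 7.14e-07.

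From 35 to 63 DAP the difference between the homologs moved by 6.03 log2 units in favour of JrFAD2, with a 95% confidence interval of 4.18 to 7.89 from its own spread between libraries (adjusted p = 6.2e-05 from limma without moderation). From 119 to 147 DAP it moved by -7.00, with an interval of -8.85 to -5.14 (adjusted p = 9.6e-06). Between 63 and 91 DAP it moved by 0.95 (interval -0.91 to 2.80, adjusted p = 0.499) and between 91 and 119 DAP by -0.05 (interval -1.91 to 1.80, adjusted p = 0.973). The adjustment ran over genes all set against the same JreChr09G11115 values, so it is not an adjustment over separate tests. The balance at 147 DAP differed from that at 35 DAP by -0.07, and the interval of -1.93 to 1.78 leaves room for a ratio several times larger or smaller. In the moderated limma fit the first and last steps had an adjusted p of 8.52e-17 and 1.99e-19, and the other 3 were not past the threshold. These p-values are too small, because every gene in that fit was set against the same JreChr09G11115 values and the moderated standard error, 0.46, was below the own one of 0.83. Measured in this way, 94.6% of the other tested genes differed from JreChr09G11115 in the first step and 99.2% in the last, against 10.5% and 7.17% in the 2 steps between. Between 35 and 147 DAP 77.1% did. A profile unlike that of JreChr09G11115 was thus not particular to JrFAD2. Because JreChr09G11115 itself moved in the first and last steps, a gene that stayed level would differ from it too. The difference alone therefore cannot tell an opposite profile from a level one.

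Within single stages the difference from 0 was past the threshold at all 5 in both fits. It was smallest at 63 DAP, where the interval from its own spread ran from 0.09 to 2.71 (adjusted p = 0.0447 from limma without moderation). That call is close to the threshold, and its adjustment also ran over genes all set against the same JreChr09G11115 values. In 3 of the 5 stages the library with the highest JrFAD2 was also the one with the lowest JreChr09G11115. It was replicate 2 each time, and replicate 2 had the lowest JreChr09G11115 at every stage. With so few libraries in a stage, such matches can arise by chance. Neither chance nor a shared effect of the replicate number was tested for them.

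**Figure D3:**
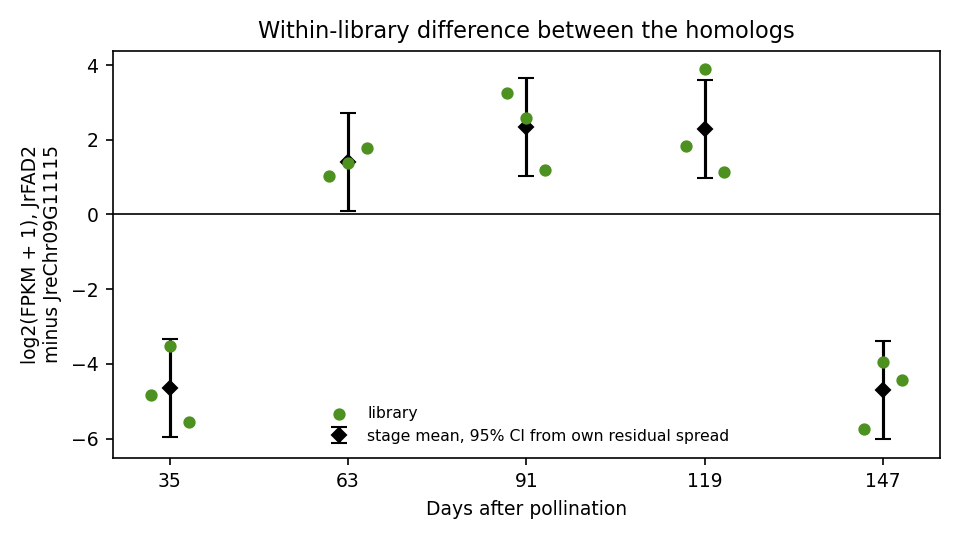
Difference in log2(FPKM + 1) between JrFAD2 and JreChr09G11115 within each library against days after pollination. Green points are libraries, black diamonds stage means and bars their 95% confidence intervals from the residual spread of this difference over all stages; values above 0 mean that JrFAD2 was higher, as in all 9 libraries of 63, 91 and 119 DAP.

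The summed FPKM of the 3 homologs moved far less than either gene. Its means were 271 ± 7.31, 191 ± 32.4, 254 ± 89.4, 359 ± 243 and 527 ± 123 in the order of the stages (SD, n = 3 each). None of the 4 consecutive steps was past the threshold, with log2 differences of -0.51 (adjusted p = 0.286 from limma), 0.37 (adjusted p = 0.527), 0.33 (adjusted p = 0.604) and 0.75 (adjusted p = 0.135). The step from 119 to 147 DAP was 1.27 without replicate 2 of 119 DAP (adjusted p = 0.00448). Between 35 and 147 DAP the sum was 0.94 higher (adjusted p = 0.0389 from limma), and this call was lost with each library rescaled to the same sum (0.64, adjusted p = 0.135) and without any 1 of the 35 DAP libraries or replicate 1 or 3 of 147 DAP (adjusted p up to 0.135). The stage means of 63 and 147 DAP were furthest apart, by 1.45 (adjusted p = 0.0043).

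The pools also held transcripts of embryo storage genes, and their level moved with the stages. The marker list had 5 genes, namely 2 glutelin genes, a cupin, an oleosin and a late embryogenesis abundant gene. At 35 DAP their summed FPKM was 2.16 to 3.71. In the 3 middle stages it was 1784 to 6597, 4865 to 9814 and 3493 to 19562 in turn. The libraries of 147 DAP had 2082 to 3503. Of the 5 genes 4 were tested, and all 4 rose from 35 to 63 DAP, as did 19.3% of all tested genes. The cupin, JreChr14G11701, was at most 1.05 FPKM at 35 DAP and listed at 0 in all libraries of 119 and 147 DAP. From 119 to 147 DAP the glutelin genes JreChr03G12610 and JreChr03G12612 changed by -2.25 and -3.57 on the log2 scale and the late embryogenesis abundant gene JreChr01G10579 rose by 1.22, while the oleosin JreChr12G10222, a coat protein of oil bodies, had its highest mean, 1050.5 FPKM, at 147 DAP.

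The library with the highest storage sum, replicate 2 of 119 DAP, also had the highest JrFAD2 of all 15 libraries and the lowest JreChr09G11115 of its stage. At 35, 63 and 91 DAP too, the library highest in JrFAD2 had the highest storage sum of its stage. These were replicates 2, 3 and 1 in turn, with storage sums of 3.71, 6597 and 9814. The sums of 35 DAP, 2.16 to 3.71, came from genes at or below 1.29 FPKM, so their order is uncertain. At 147 DAP they differed, with replicate 2 highest in JrFAD2 and replicate 3 in the storage sum. The storage sums of 147 DAP lay within the range of those of 63 DAP, whereas JrFAD2 was 11.3 to 26.3 FPKM at 147 DAP and 111 to 162 FPKM at 63 DAP. The genes behind these sums were not the same. From 63 to 147 DAP the glutelin JreChr03G12612 fell by 2.47 on the log2 scale (adjusted p = 0.0123 from limma), in the direction of JrFAD2, while the oleosin rose by 2.68 and the late embryogenesis abundant gene by 3.40, and the other glutelin differed by -0.38 (adjusted p = 0.612). JreChr09G11115 was at 256 to 261 FPKM in the 35 DAP libraries, where the storage sum did not exceed 3.71. The part of embryo RNA in the level of JrFAD2 was not tested. In such bulk pools, fewer cells of a type and less RNA per cell cannot be told apart. The summed FPKM of 2 flavonoid genes used as seed coat markers, JrANR and a chalcone synthase, was 119 to 147 at 35 DAP. In the 3 middle stages it was 363 to 384, 152 to 239 and 403 to 895 in turn, and the libraries of 147 DAP had 1277 to 2146.

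**Figure D4:**
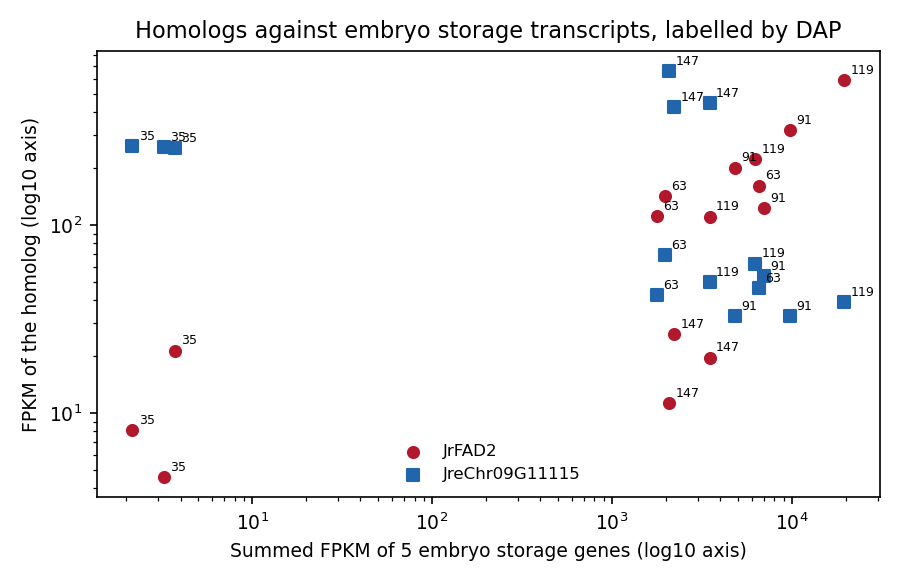
FPKM of JrFAD2 and JreChr09G11115 (log10 axis) against the summed FPKM of 5 embryo storage genes (log10 axis), 1 point per library and gene, labelled with days after pollination. At 147 DAP the storage sums were 2082 to 3503, and at 63 DAP 1784 to 6597, with different genes making up the sums. JrFAD2 was lower and JreChr09G11115 higher in every library of 147 DAP than in those of 63 DAP. The part of embryo RNA in these levels was not tested.

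Genes that act beside FAD2 did not share 1 profile. Of 6 listed genes of fatty acid synthesis and electron supply, 4 were tested and all 4 changed over the 5 stages, against 81.2% of all tested genes. From 35 to 63 DAP 1 of them fell, the reductase named next, and none rose. With libraries rescaled to the same sum 3 fell in this step, and after quantile normalization 2 did. From 119 to 147 DAP again 1 fell, JreChr14G11436, and none rose, a call lost after quantile normalization. The cytochrome b5 gene JreChr06G12046, which codes for an electron donor of FAD2, had 130.2 ± 4.29 FPKM at 35 DAP and 83.4 ± 6.60 FPKM at 147 DAP (SD, n = 3 each; log2 difference -0.64, adjusted p = 0.00037 from limma). The NADH-cytochrome b5 reductase JreChr13G10510 fell from 66.9 ± 4.25 to 42.5 ± 5.02 FPKM in the step from 35 to 63 DAP (log2 difference -0.65, adjusted p = 0.000225). The stage means of both spanned less than 1 log2 unit. The cytochrome b5-like gene JreChr03G12076 was 1.40 lower on the log2 scale at 147 than at 35 DAP (adjusted p = 4.29e-05). All 4 were lower at 147 than at 35 DAP, as were 43.7% of the tested genes, with a median of -0.78 against -0.27 over all tested genes. This count fell under other scalings, since the malonyl-CoA transacylase JreChr14G11436 was not past the threshold after quantile normalization and the reductase was not after median-ratio scaling. The acyl-ACP desaturase JreChr07G10552 was listed at 0 in all 15 libraries, and the cytochrome b5 JreChr16G10725 did not pass the filter.

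Among genes of glycerolipid assembly, groups were found that shared the directions of either homolog in the first and last steps, but not its whole profile. Of 11 listed genes 10 were tested, and all 10 changed over the stages, against 81.2% of all tested genes. From 35 to 63 DAP 5 rose and 4 fell, where 19.3% of all tested genes rose and 27.4% fell. With libraries rescaled to the same sum 2 rose and 4 fell, and after quantile normalization 6 rose and 3 fell. From 119 to 147 DAP 3 rose and 4 fell, where 14.1% of all tested genes rose and 21.8% fell, and under each of the 3 other scalings 3 fell. The medians of these steps were 0.41 and -0.09, against -0.07 and -0.10 over all tested genes. The 3 glycerol-3-phosphate acyltransferase genes have products that add the first acyl chain to glycerol-3-phosphate, and their best Arabidopsis match acts in cutin synthesis. These 3 genes moved in the same directions as JreChr09G11115 in the first and last steps. JreChr09G11568 went from 45.6 ± 5.24 FPKM at 35 DAP to 12.5 ± 2.73 by 63 DAP, and from 7.21 ± 2.15 at 119 DAP to 12.8 ± 1.89 by 147 DAP (SD, n = 3 each). It fell by 1.80 on the log2 scale in the first step (adjusted p = 9.87e-06 from limma) and rose by 0.77 in the last (adjusted p = 0.013). JreChr09G11569 and JreChr09G11589 fell by 1.87 and 1.81 and rose by 1.57 and 0.97. Unlike JreChr09G11115, all 3 stayed below their 35 DAP level at 147 DAP, with log2 differences of -2.43 to -1.76. All 3 also fell from 63 to 91 DAP, by 0.99, 2.17 and 1.36 (adjusted p up to 0.004 from limma). In that step 26.5% of the tested genes changed, and JreChr09G11115 was not past the threshold. Between 63 and 147 DAP the 3 genes were not past the threshold (0.04, -0.56 and -0.21), while JreChr09G11115 was 3.25 higher.

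A pair of lecithin:cholesterol acyltransferase family genes moved in the same directions as JrFAD2 in the first and last steps. Their best Arabidopsis match belongs to the phospholipid:diacylglycerol acyltransferases, enzymes that can pass an acyl chain from a phospholipid, the lipid on which FAD2 acts, to diacylglycerol. JreChr13G10860 went from 1.78 ± 0.917 FPKM at 35 DAP to 20.3 ± 2.17 by 63 DAP, and from 39.3 ± 23.8 at 119 DAP to 9.80 ± 0.932 by 147 DAP (SD, n = 3 each). It rose by 2.99 on the log2 scale in the first step (adjusted p = 4.84e-06 from limma) and fell by 1.75 in the last (adjusted p = 0.00112). JreChr13G10859 rose by 2.70 and fell by 1.62. Both were higher at 147 than at 35 DAP, by 2.01 and 2.21, where JrFAD2 was not past the threshold. The directions and calls of these 2 genes and the 3 glycerol-3-phosphate acyltransferases in the first and last steps held under the 3 other scalings. Genes with neighbouring numbers, as in both groups, can share reads, so their separate values are uncertain. Another gene of the family, JreChr09G12342, rose by 0.53 in the first step, differed by 0.32 in the last (adjusted p = 0.126 from limma) and was highest at 147 DAP. The membrane-bound O-acyltransferase JreChr01G13951 rose by 0.62 and fell by 0.50 (adjusted p = 0.0481). Both rises were lost with libraries rescaled to the same sum, and that fall under each of the 3 other scalings.

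Of 6 listed genes of cuticle and wax, 3 were tested and all 3 changed, against 81.2% of all tested genes. WAX2 (JreChr08G11742), which acts in cuticle formation, was 7.94 ± 0.774 FPKM at 35 DAP and at or below 1.69 FPKM on average later. The wax synthase JreChr06G10700 was 4.69 ± 0.634 FPKM at 35 DAP and at or below 0.174 FPKM on average later, and from 119 to 147 DAP neither changed past the threshold (log2 differences of 0.23 for WAX2 and 0.22 for the wax synthase, adjusted p = 0.50 and 0.192 from limma). The wax synthase JreChr06G10736 had its highest mean at 119 DAP, 5.98 ± 1.53 FPKM. The fatty acid hydroxylase family gene JreChr05G12212, which is a carotenoid hydroxylase in Arabidopsis, rose by 1.22 from 35 to 63 DAP and fell by 1.13 from 119 to 147 DAP on the log2 scale. The sphingolipid hydroxylase JreChr06G10579 rose by 0.50 in the first step (adjusted p = 0.00943 from limma), a call lost with libraries rescaled to the same sum.

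**Figure D5:**
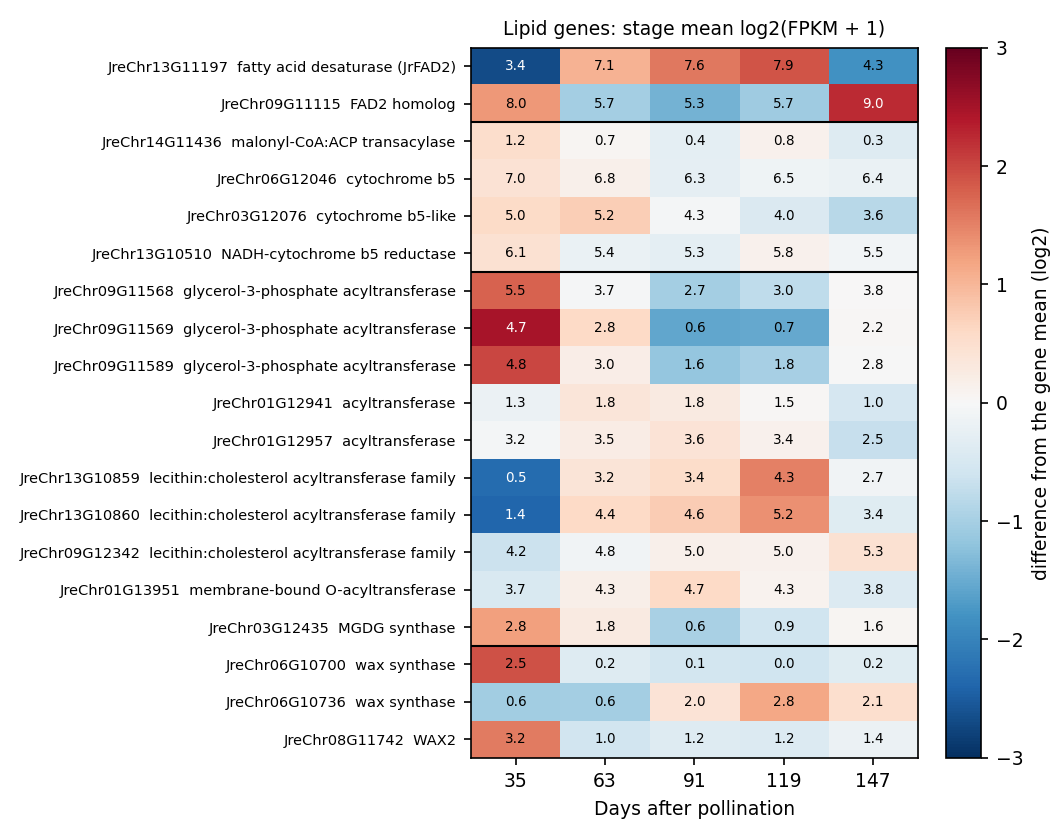
Mean log2(FPKM + 1) over 3 libraries at each stage (days after pollination) for the 2 tested FAD2 homologs and, below the lines, the tested genes of fatty acid synthesis and electron supply, glycerolipid assembly, and cuticle and wax. The number in each cell is the stage mean and the colour its difference from the mean of the 5 stages, cut off at 3 log2 units; JreChr13G10859 and JreChr13G10860 were lowest at 35 DAP and highest at 119 DAP like JrFAD2, and the 3 glycerol-3-phosphate acyltransferases were highest at 35 DAP.

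The genes whose log2(FPKM + 1) was most like that of a homolog were sought among 18371 tested genes with a stage mean of at least 5 FPKM. Over the 15 libraries, which share their stages and therefore any change with stage, the 5 closest to JrFAD2 had a Pearson's r of 0.959 to 0.979 and the 5 closest to JreChr09G11115 one of 0.962 to 0.969. The closest to JrFAD2 was JreChr11G11315, with means of 0.337, 4.04, 4.37, 5.42 and 0.500 FPKM at the 5 stages. Also among the 5 was JreChr03G12609, next in number to the glutelin gene JreChr03G12610, with 0, 499, 851, 899 and 6.01 FPKM. The closest to JreChr09G11115 was JreChr08G11390, with 105, 48.5, 47.6, 61.8 and 154.5 FPKM. No function was known for these genes from the sources used here. The choice was sensitive to the measure of likeness, since Spearman's rho shared 3 of the 5 genes for JrFAD2 and 1 for JreChr09G11115, and a correlation over the 5 stage means shared none for either.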

How the data were processed

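Endopleura RNA of 15 walnut libraries was sequenced on a NovaSeq instrument. The authors aligned the reads with HISAT2 2.1.0 to their own J. regia genome, quantified them with StringTie 1.3.5 and deposited FPKM values for 39414 genes. Count models do not apply to FPKM, and the counting error is unknown. Ratios of values under 0.1 FPKM gave a relative depth of 0.855 to 1.15. Stage and replicate came from the sample labels. Libraries of a stage correlated with r of 0.964 to 0.992, and none were identical.

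From these values log2(FPKM + 1) was computed, which understates the changes of low genes, and tested with limma 3.58.1 (R 4.3.3; eBayes with trend, 1 coefficient per stage) for the 22310 genes that reached 1 FPKM in 3 or more libraries. The summed FPKM of the homologs entered as 1 more row. Within-library differences of 22309 genes from JreChr09G11115 were fitted likewise, and also with each gene's own residual spread, a fit chosen after seeing the data. The moderated fits were tested on simulated data in which JreChr09G11115, unlike here, did not change with stage. The fit with own residual spread was not tested in this way.

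Named genes were the 3 homologs, lists chosen by annotation, the 5 genes with the most similar profile and the 5 neighbours on each side. Members and lists were chosen with earlier results of these data known. Of the gene identifiers, 0 matched the RefSeq table, so no sequence is shown. The alternatives were pseudocounts of 0.1 and 5, quantile, equal-sum (TPM) and median-ratio scaling, no filter or a mean of at least 5 FPKM, eBayes without trend, a replicate block, only the 2 stages compared, and each library left out. Python 3.11.15 was used for the exact tests and figures.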

Additional observations from a re-analysis of the deposited data

How the results depend on the processing

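Of 1276 values under other settings, 1232 kept their direction and their side of the threshold or stayed close, 13 fell back past the threshold, 8 passed it, 18 changed sign and 5 counts moved. The rise of JrFAD2 from 35 to 63 DAP (3.25 to 4.28), its fall from 119 to 147 DAP (-4.26 to -3.06), the changes of JreChr09G11115 in the same steps (-2.52 to -2.17 and 3.11 to 3.47) and the profile difference in both (5.47 to 6.59 and -7.57 to -6.20) kept their calls throughout. The exact p of the profile difference was 0.000877 to 0.00173 with a library left out. Replicate numbers were shared by libraries of different stages, and nothing states whether they pair the libraries. With stage means taken out, 10 of 30 same-numbered pairs correlated above 0.1 (range -0.40 to 0.41, median -0.03). No pairing was assumed, and these correlations cannot settle it. With the replicate block the profile difference from 35 to 63 DAP was 6.03, and the block changed no call.

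Other differences did not all hold, and not only small ones. They included the sum of the homologs between 35 and 147 DAP (0.94) and between 91 and 147 DAP (1.08). The profile difference from 35 to 147 DAP was 0.00631 with a pseudocount of 0.1 and 0.25 after quantile normalization. A pseudocount of 5 brought the profile differences between 63 and 91 DAP (0.90, adjusted p = 0.0467 by limma) and between 63 and 119 DAP (0.88) past the threshold. JreChr09G11115 differed between 63 and 119 DAP by 0.018 after quantile normalization and 0.056 after median-ratio scaling, against -0.06. The sum of the homologs differed between 35 and 119 DAP by -0.0704 after rescaling to equal sums (TPM), and between 35 and 147 DAP by 0.64 (not past the threshold). The latter stayed at 0.94 but lost its call without a filter (adjusted p = 0.106) and with its own residual spread (adjusted p = 0.0787), as did 1.08 between 91 and 147 DAP. With only the 2 stages compared, the fall of the sum from 35 to 63 DAP, -0.51, passed (adjusted p = 0.0169). Apart from these, the filter on a mean of at least 5 FPKM removed all 3 tested genes of the cuticle list, with means of 1.01 to 2.70 FPKM, so that 0 were left to test. The causes of the other changes were not tested.

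With 1 library left out, JrFAD2 differed by 0.42 to 1.42 between 35 and 147 DAP and by -0.34 to 0.87 between 91 and 119 DAP, and JreChr09G11115 by -0.22 to 0.15 between 63 and 119 DAP. The sum differed by 0.75 to 1.04 between 35 and 147 DAP, by 0.29 to 1.27 between 119 and 147 DAP, by -0.19 to 0.80 between 91 and 119 DAP, by -0.41 to 0.086 between 35 and 91 DAP, by -0.33 to 0.65 between 35 and 119 DAP, by 0.18 to 1.16 between 63 and 119 DAP and by 0.85 to 1.35 between 91 and 147 DAP. The profile difference was -0.53 to 0.49 between 35 and 147 DAP, -0.85 to 0.52 between 91 and 119 DAP, 0.49 to 1.52 between 63 and 91 DAP and 0.09 to 1.47 between 63 and 119 DAP. The median log2 difference of all tested genes between 35 and 147 DAP was -0.27, and 0.03, -0.53 and -0.05 after quantile, equal-sum and median-ratio scaling.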

Other observations

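The genes next to the homologs on their chromosomes were compared in the steps in which the homologs changed. In the step from 35 to 63 DAP 19.3% of all tested genes rose and 27.4% fell, and from 119 to 147 DAP 14.1% rose and 21.8% fell. Of the 10 neighbours of JrFAD2, 5 on each side, 4 were tested and 1 changed over the 5 stages, against 81.2% of all tested genes. From 35 to 63 DAP 1 of the 4 fell, JreChr13G11203 by 0.44 on the log2 scale (adjusted p = 0.0337 from limma), and none rose. From 119 to 147 DAP none of them changed past the threshold. Of the 10 neighbours of JreChr09G11115, 7 were tested and 3 changed over the 5 stages, against 81.2% of all tested genes. From 35 to 63 DAP 1 rose and 1 fell, and from 119 to 147 DAP none changed past the threshold. The one that rose was JreChr09G11130, by 7.77 on the log2 scale (adjusted p = 2.42e-09 from limma), opposite to JreChr09G11115. The other one, JreChr09G11092, fell by 2.93 (adjusted p = 1.52e-08 from limma), in the same direction as JreChr09G11115 and by more, but from 119 to 147 DAP it differed by -0.08 (adjusted p = 0.775). Of the 10 neighbours of JreChr10G10925, 5 were tested and 4 changed over the stages, close to the share of all tested genes. In the step from 35 to 63 DAP 1 of the 5 rose and 2 fell, and from 119 to 147 DAP 1 rose and 1 fell.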
